A study of Mus musculus with 39 samples.

Results

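Ly6c2, Plac8, F13a1, Hp, Serpinb10 and I830127L07Rik were followed across 39 RNA sequencing libraries of sorted mouse lung cells. The 6 genes, of 43430 in the count table, were found by symbol. They stand for classical monocytes, and several were chosen by their counts in these same libraries, which were near 0 in macrophages, so the difference between monocytes and macrophages is described here without a test. The cells were lung monocytes (20 libraries, naive mice) and Siglec F-low alveolar macrophages of monocyte origin (19 libraries). The macrophage donors had received bleomycin, which damages the alveoli and is used to model lung fibrosis. All mice were C57BL/6J, young or old, and were given saline or ISRIB, which counters the drop in protein synthesis caused by the integrated stress response. This gave 8 groups of 5 libraries, except young ISRIB macrophages with 4. Ages are stated differently in the sample labels (young 8 to 12 weeks, old over 18 months) and in the series text (young 3 to 5 months, old 18 to 24 months). Per the series text, ISRIB was injected daily from day 7 and cells were sorted 21 days after bleomycin, and no timing is named for naive mice. Every macrophage library came from a bleomycin-treated mouse and every monocyte library from a naive one, so cell type and bleomycin cannot be told apart.

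Classical monocytes leave the bone marrow with high surface Ly6C and the chemokine receptor CCR2, circulate, and enter injured tissue. Some convert in the blood into nonclassical monocytes, which lose Ly6C and depend on the nuclear receptor Nr4a1, and others become tissue macrophages and replace their monocyte transcripts with those of the tissue. After lung injury, macrophages of this origin fill the alveolar niche, first with little surface Siglec F and later with more of it. The 6 genes cover several roles. Ly6c2 encodes the Ly6C surface antigen by which classical monocytes are recognised, and I830127L07Rik is a less studied gene of the same Ly6 family. Plac8 encodes a small cysteine-rich protein of myeloid cells that is also made in lymphocytes and plasmacytoid dendritic cells. F13a1 encodes the catalytic subunit of the clotting factor that crosslinks fibrin, and Hp encodes haptoglobin, which binds free haemoglobin. Serpinb10 encodes a serpin of the clade that inhibits proteases inside the cell.

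Ly6c2 and I830127L07Rik are neighbours. In GRCm38, Ly6c2 (ENSMUSG00000022584) occupies chromosome 15 from 75108158 to 75111970, and I830127L07Rik (ENSMUSG00000102051) lies 19406 bases away at 75131377 to 75135128, both on the minus strand. Ly6c1, the near copy of Ly6c2 known from endothelium, lies on the same strand 59327 bases to the other side, at 75044018 to 75048830. GENCODE lists I830127L07Rik as a transcribed unprocessed pseudogene, and RefSeq lists it as a protein-coding gene under the symbol Ly6a2. Plac8 (ENSMUSG00000029322) is on chromosome 5 at 100553725 to 100572245, F13a1 (ENSMUSG00000039109) on chromosome 13 at 36867178 to 37050244 and Hp (ENSMUSG00000031722) on chromosome 8 at 109575128 to 109579172, all on the minus strand. Serpinb10 (ENSMUSG00000092572), on the plus strand of chromosome 1 at 107529003 to 107549271, is listed by GENCODE as a polymorphic pseudogene, and 176 of its exonic bases overlap exons of Serpinb2.

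RefSeq windows of 300 bases around the gene start, in build GRCm38.p6, were found for 5 of the 6 genes and for Ly6c1. The first 3 windows below are shown because the Ly6 neighbours differ in level in these cells, and F13a1 and Serpinb10 because they moved in opposite directions between monocyte libraries. Each runs 5′ to 3′ on the strand of its gene, and capitals mark GAGGAA on either strand (TTCCTC on the other). GAGGAA is a longer form of GGAA, the core bound by PU.1, the myeloid transcription factor encoded by Spi1.
Ly6c2 (chr15:75111922-75112221, minus strand): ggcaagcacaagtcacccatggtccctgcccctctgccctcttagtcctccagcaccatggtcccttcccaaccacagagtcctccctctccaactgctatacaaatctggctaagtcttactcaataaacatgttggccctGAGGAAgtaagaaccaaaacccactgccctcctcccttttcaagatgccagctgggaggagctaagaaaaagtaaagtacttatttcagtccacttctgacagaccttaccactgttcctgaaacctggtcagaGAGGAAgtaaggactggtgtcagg
I830127L07Rik (chr15:75135079-75135378, minus strand): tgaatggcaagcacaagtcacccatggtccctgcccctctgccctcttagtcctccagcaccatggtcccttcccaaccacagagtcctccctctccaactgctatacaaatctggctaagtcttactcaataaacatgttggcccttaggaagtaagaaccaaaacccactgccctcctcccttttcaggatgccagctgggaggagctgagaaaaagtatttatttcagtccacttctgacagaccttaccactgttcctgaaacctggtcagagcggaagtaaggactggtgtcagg
Ly6c1 (chr15:75048788-75049087, minus strand): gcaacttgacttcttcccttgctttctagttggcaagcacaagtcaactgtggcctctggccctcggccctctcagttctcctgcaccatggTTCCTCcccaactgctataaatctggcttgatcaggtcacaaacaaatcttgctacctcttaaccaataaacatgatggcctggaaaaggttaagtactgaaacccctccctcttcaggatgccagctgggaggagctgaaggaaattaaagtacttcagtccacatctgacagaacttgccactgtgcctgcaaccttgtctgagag
F13a1 (chr13:37050195-37050494, minus strand): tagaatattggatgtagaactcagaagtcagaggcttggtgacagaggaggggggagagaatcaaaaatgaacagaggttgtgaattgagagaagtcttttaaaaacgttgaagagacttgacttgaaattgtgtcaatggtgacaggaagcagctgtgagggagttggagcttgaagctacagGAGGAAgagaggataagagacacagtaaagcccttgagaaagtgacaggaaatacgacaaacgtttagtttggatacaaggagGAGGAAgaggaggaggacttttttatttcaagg
Serpinb10 (chr1:107528753-107529052, plus strand): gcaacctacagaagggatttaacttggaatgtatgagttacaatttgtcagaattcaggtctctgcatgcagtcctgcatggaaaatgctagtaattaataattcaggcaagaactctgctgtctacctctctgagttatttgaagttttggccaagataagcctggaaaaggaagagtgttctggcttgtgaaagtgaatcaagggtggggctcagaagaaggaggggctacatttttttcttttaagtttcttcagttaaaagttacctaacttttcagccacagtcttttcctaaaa

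The windows of Ly6c2 and I830127L07Rik were identical in 290 of 305 aligned columns (95.1%), whereas Ly6c2 and Ly6c1 shared 62.3% and I830127L07Rik and Ly6c1 62.7%. The Ly6c2 and I830127L07Rik windows differed by 5 substitutions and by gaps in 10 columns. Counted from 1 at the 5′ end of the printed Ly6c2 window, with the Ly6c2 base first, 2 of the 5 substitutions, G143T and A278C, fall inside the GAGGAA matches of Ly6c2. Both leave the GGAA of these matches unchanged in I830127L07Rik. GAGGAA occurred 2 times each in the windows of Ly6c2, Plac8 and F13a1, 1 time in that of Ly6c1 and 0 times in those of I830127L07Rik and Serpinb10, and 28.3% of 27025 RefSeq windows of this length held it. A match is a run of letters only, and a window without it says nothing of the factor.

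The close sequences bear on counting. Of the windows of 50 bases in Ly6c2 transcripts, 14.5% (395 of 2733) also occurred in transcripts of another gene, 379 of them in Ly6c1 and 3 in I830127L07Rik. The share was 9.58% for I830127L07Rik and 6.97% for Serpinb10, in the latter all with Serpinb2. It was 0.404% for F13a1 and 0 for Plac8 and Hp. How reads from such stretches were assigned is not given in the sources used here, so the values of Ly6c2, I830127L07Rik and Serpinb10 are less certain in this respect.

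Libraries held 4595331 to 16056708 counts, with similar ranges in the 2 cell types. Levels are given as CPM, a gene's counts per 1000000 counts of its library. The sorted cells carried the markers their labels call for: Ccr2 was at 1057 to 3958 CPM in monocytes and 53.4 to 453 CPM in macrophages, and Siglecf at 0 to 1.57 CPM and 46.8 to 156 CPM. Monocyte libraries also held transcripts of genes linked to nonclassical cells. Nr4a1 stood at 947 to 3377 CPM in them and 24.1 to 140 CPM in macrophages, and Cx3cr1, a receptor high on nonclassical cells, at 271 to 789 CPM and 56.7 to 266 CPM. Each monocyte library thus carried transcripts of Ccr2, Nr4a1 and Cx3cr1. Macrophages held Nr4a1 and Cx3cr1 too, so these genes alone do not show that nonclassical cells were sorted. In bulk libraries fewer cells of a type cannot be told apart from less RNA per cell.

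In monocytes all 6 genes were present in all 20 libraries, at levels that spanned a wide range. F13a1 had a mean of 2011 ± 581 CPM (SD, n = 20 libraries), Plac8 1502 ± 313 CPM, Hp 674 ± 179 CPM, Ly6c2 483 ± 121 CPM, I830127L07Rik 138 ± 46.5 CPM and Serpinb10 53.6 ± 19.7 CPM. Scaled to exon length (RPKM, the CPM per kilobase of exon), the order was different. Plac8 was first at 944 RPKM, followed by Hp at 420, F13a1 at 298, Ly6c2 at 176, I830127L07Rik at 173 and Serpinb10 at 15.4 RPKM. The near equality of Ly6c2 and I830127L07Rik on this scale rests on their merged exon lengths of 2740 and 798 bases, and whether these are the lengths of the transcripts made in these cells was not tested. Ly6c1 stood at 0 to 1.80 CPM in the same libraries. Together the 6 genes held 0.347% to 0.630% of the counts of a monocyte library and 0.00884% to 0.0619% of those of a macrophage library.

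In macrophages the genes fell into levels that differ by orders of magnitude, and not all were near 0. The values described next are those by which several of the genes were chosen. I830127L07Rik and Serpinb10 were at or near 0: I830127L07Rik had 10 counts over all 19 macrophage libraries and none in 15 of them, and Serpinb10 had 11 counts and none in 15. Ly6c2 was low in every macrophage library, at 0.193 to 7.01 CPM (2 to 53 counts), and Plac8 ranged from 0 in 3 libraries to 10.8 CPM.

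F13a1 and Hp remained well above 0. F13a1 was at 24.2 to 69 CPM in macrophages (173 to 734 counts) with a mean of 45.2 ± 12.4 CPM (SD, n = 19), a spread of 27.4% of the mean that was close to the 28.9% in monocytes. Hp was at 23.2 to 572 CPM, and its highest macrophage library, old saline replicate 4, lay within the range of monocytes (407 to 967 CPM). By level, 4 of the 6 reached at most 10.8 CPM in a macrophage library. Several of the genes were chosen by such values, so this is no test of the name of lost genes. F13a1 and Hp had lower means than in monocytes but stayed at 23.2 CPM or more. Presence alone does not separate them, as Ly6c2 also had counts in all 19 macrophage libraries, at 0.193 to 7.01 CPM.

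Expressed as the ratio of the mean of the 4 monocyte groups to that of the 4 macrophage groups, the levels were 2188-fold higher in monocytes for I830127L07Rik, 793-fold for Serpinb10, 762-fold for Plac8, 283-fold for Ly6c2, 44.8-fold for F13a1 and 6.04-fold for Hp. In young saline mice, where no macrophage library had a count of either gene, monocytes were at least 2431-fold higher for I830127L07Rik and at least 659-fold higher for Serpinb10, taking 3 counts over the group as the floor. These bounds cover counting error only. The ratio for Serpinb10 rests on so few macrophage counts that it moved from a log2 value of -9.63 to -10.48 (macrophages over monocytes) without young ISRIB macrophage replicate 1, which held 5 of the 11 counts. That for I830127L07Rik moved from -11.10 to -12.10 without old saline macrophage replicate 4, which held 5 of the 10.

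**Figure D1:**
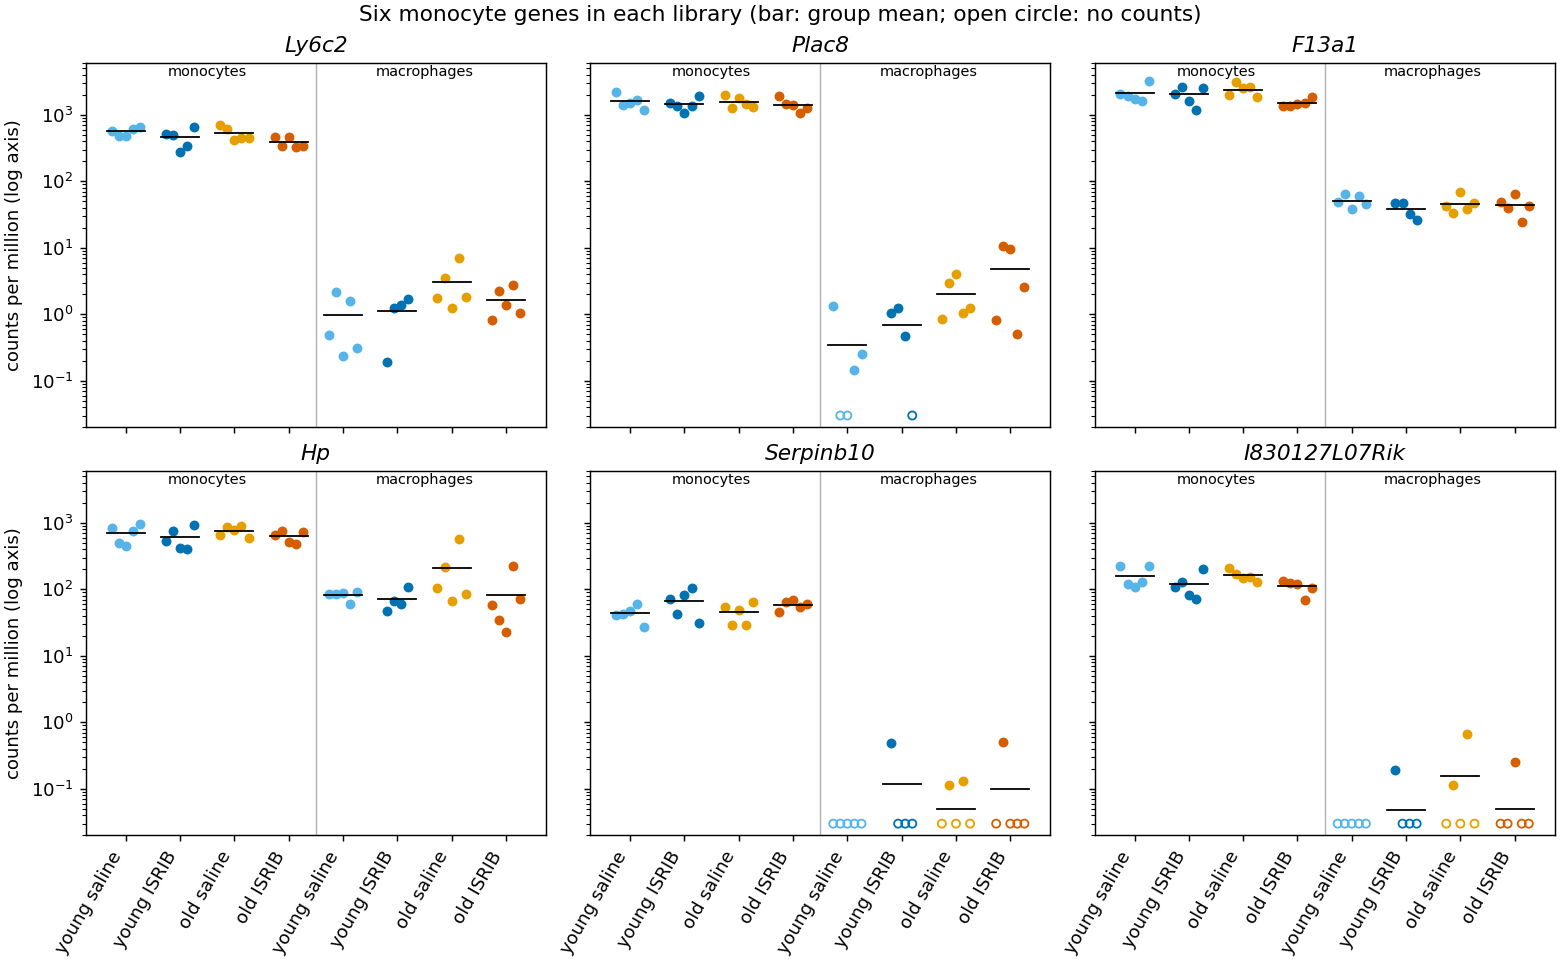
CPM (log axis) of each gene in each of the 39 libraries, by group, with the group mean as a bar and libraries without a count as open circles at the bottom. I830127L07Rik and Serpinb10 have no count in 15 of 19 macrophage libraries, F13a1 keeps 24.2 to 69 CPM in them, and Hp in old saline replicate 4 reaches the range of monocytes.

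The order of the 8 groups put the 4 monocyte groups first for each gene, and neighbouring groups within a cell type overlapped in the order of their means for all 6 genes. For Ly6c2 the monocyte means ran from 561 ± 75 CPM in young saline mice through old saline and young ISRIB to 387 ± 72.2 CPM in old ISRIB mice (SD, n = 5 each). For Plac8 they ran from 1589 ± 389 CPM in young saline to 1410 ± 306 CPM in old ISRIB mice. For I830127L07Rik, old saline (162 ± 29.1 CPM) and young saline (162 ± 57.7 CPM) came first and old ISRIB last (111 ± 25 CPM). Serpinb10 had the reverse order of treatments, with young ISRIB (66.9 ± 30.5 CPM) and old ISRIB (58.7 ± 8.75 CPM) above old saline (45.1 ± 15.4 CPM) and young saline (43.8 ± 11.7 CPM).

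Between monocyte libraries the genes did not vary as a single group: Serpinb10 went down where the others went up. Over the 20 libraries, Pearson's r of log2(CPM + 1) between Serpinb10 and F13a1 was -0.79 (Spearman's rho -0.71, permutation p = 1e-05, the smallest that 100000 resamples can give, adjusted 0.00015). It was -0.76 with Hp (rho -0.73, permutation p adjusted 0.0006), -0.71 with I830127L07Rik (rho -0.70, adjusted 0.00117) and -0.61 with Ly6c2 (rho -0.54, adjusted 0.00745). With Plac8 it was -0.20 (rho -0.20, permutation p adjusted 0.416). The other 5 genes were positively related to each other. The highest values were those of I830127L07Rik with its neighbour Ly6c2 (r = 0.81, rho 0.70, permutation p adjusted 0.00015) and with Hp (r = 0.80, rho 0.81, adjusted 0.00015). In all, 15 pairs were tested with Benjamini-Hochberg adjustment, 12 passed 0.05, and the 3 that did not were Plac8 with F13a1 (r = 0.05), Hp (0.38) and Serpinb10.

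Without the 2 libraries farthest from the median of the first gene of a pair, r was -0.70 for F13a1 and Serpinb10, -0.65 for Hp and Serpinb10, 0.76 for Ly6c2 and I830127L07Rik and 0.72 for Hp and I830127L07Rik. The relations of Plac8 leaned more on such libraries: without them r moved from 0.56 to 0.39 with Ly6c2 and from 0.61 to 0.44 with I830127L07Rik. After each value was centred on its group mean, the first 4 of these pairs gave -0.84, -0.74, 0.76 and 0.80, so they were also present among libraries of the same age and treatment. Of the 12 pairs, that of Ly6c2 and F13a1 alone missed the threshold after centring, with r of 0.57 before and 0.44 after.

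**Figure D2:**
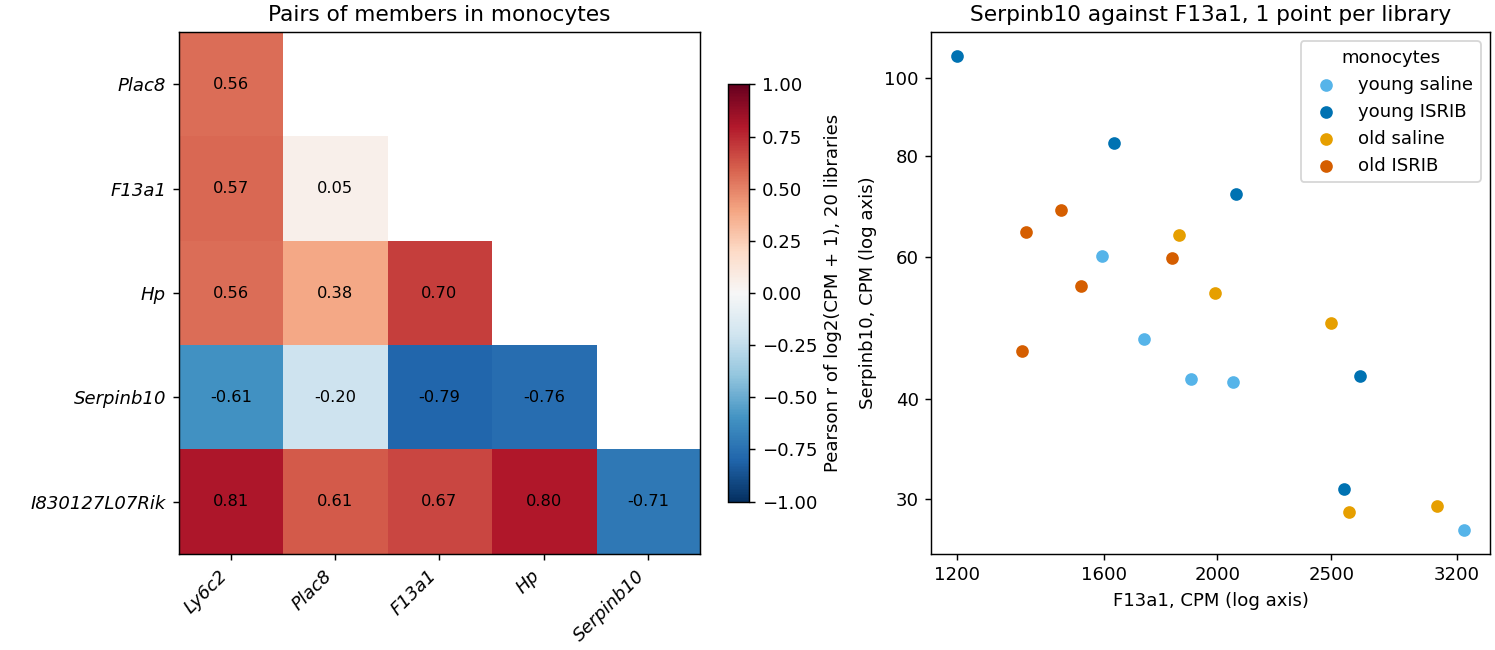
Left, Pearson's r of log2(CPM + 1) over the 20 monocyte libraries for each of the 15 pairs of genes. Right, Serpinb10 against F13a1 in CPM (both log axes), 1 point per monocyte library coloured by group. All values in the Serpinb10 row and column are negative, from -0.20 to -0.79, and the others are positive, from 0.05 to 0.81.

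The library values show the same contrast. Young saline monocyte replicate 5 had the most F13a1 (3246 CPM) and the most Hp (967 CPM) of all 20 libraries and the least Serpinb10 (27.5 CPM). Young ISRIB monocyte replicate 4 had the least F13a1 (1200 CPM), the least Hp (407 CPM) and the most Serpinb10 (106 CPM). The summed level of 16 nonclassical monocyte genes was 3250 CPM in the first of these libraries and 9050 CPM in the second.

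Set against lists of other monocyte genes, Ly6c2, F13a1, Hp and I830127L07Rik went with classical genes and Serpinb10 with nonclassical ones. Plac8 went clearly with neither. These lists and correlations are descriptions over the same 20 libraries, which share depth and sort. The median r of Serpinb10 with 15 nonclassical genes at 5 CPM or more was 0.68 (14 positive), against 0.00 over all genes compared, and with 17 other classical genes it was -0.48 (3 positive). For Hp the medians were -0.74 and 0.51, for F13a1 -0.68 and 0.46, for I830127L07Rik -0.60 and 0.52 and for Ly6c2 -0.53 and 0.30. Plac8 was weakly related to both, with -0.10 and 0.16. By this measure the data go against the classical label for Serpinb10.

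The genes most like each member in the 20 monocyte libraries, among 9178 tested genes whose mean reached 5 CPM, are given next. Serpinb10 was closest to Cd300a (r = 0.93), an inhibitory receptor, Lrrc8c (0.89), a subunit of volume-regulated anion channels, and Spn (0.86), which encodes CD43, a surface marker of nonclassical monocytes. Ly6c2 was closest to Lgals9 (0.89), which encodes galectin-9, Slfn1 (0.85) and Ms4a4c (0.85). F13a1 was closest to Papss2 (0.88), which makes the sulfate donor of the cell, Emb (0.88) and Slc35f5 (0.84). Hp was closest to Flot1 (0.93), a membrane scaffold, Pkm (0.92), a glycolytic enzyme, and F10 (0.91), a clotting factor. I830127L07Rik was closest to Rab3d (0.87), Pycard (0.87), the inflammasome adaptor, and H2afy (0.84), and Plac8 to Psap (0.80), a lysosomal precursor, Psme2 (0.75) and Atp6v1b2 (0.73). Few of these genes share the near absence in macrophages: of the 3 closest to Ly6c2, Ms4a4c averaged 341 CPM in monocytes and 2.44 CPM in macrophages and Slfn1 203 and 8.85 CPM, whereas Lgals9 averaged 146 and 131 CPM.

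In naive mice given ISRIB, 5 of the 6 genes had lower mean levels than with saline and Serpinb10 a higher one, but no member passed the test. Averaged over both ages, the log2 fold change of ISRIB against saline was -0.49 ± 0.18 (SE) for I830127L07Rik, -0.36 ± 0.14 for Ly6c2, -0.35 ± 0.15 for F13a1, -0.22 ± 0.16 for Hp and -0.15 ± 0.13 for Plac8, and 0.50 ± 0.19 for Serpinb10. The adjusted p values (edgeR, Benjamini-Hochberg over the 12170 genes tested) ran from 0.617 to 0.805, and a gene was called where this value was under 0.05. Of the 6 genes, 0 were called by edgeR, DESeq2 or limma voom and 4 had an unadjusted p under 0.05, in a comparison where 0% of all genes tested were called. An unadjusted p under 0.05 was reached by 911 of the 12170 genes tested. The median log2 fold change was -0.29 over the 6 genes and 0.00 over all genes.

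Per age the direction was the same for each of the 6 genes. In young mice the log2 fold changes ran from -0.47 (I830127L07Rik) to 0.58 (Serpinb10), with 0 of 6 called by edgeR, DESeq2 or limma voom and 1 under an unadjusted p of 0.05 (0% of all genes called). In old mice they ran from -0.62 (F13a1) to 0.43 (Serpinb10), again with 0 called by any of these tools and 1 under an unadjusted p of 0.05 (0% called). The difference between the ISRIB effects in old and young mice gave 0 called members, 0 under an unadjusted p of 0.05 and 0% of all genes called, and DESeq2 and limma voom called none of the 6. Among all 12170 genes tested, 809 in young mice, 918 in old mice and 865 for the difference had an unadjusted p under 0.05.

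F13a1 in old mice was the sole member and comparison within a cell type, among the 4 pairs of groups in each cell type, where the groups did not overlap. How many of all genes tested had groups that did not overlap was not counted, so this separation cannot be set against other genes. Old saline monocytes were at 1991, 3079, 2497, 2587 and 1855 CPM, and old ISRIB monocytes at 1363, 1373, 1472, 1530 and 1829 CPM. All 5 ISRIB libraries lay below the lowest saline library, by a small margin for the highest of them. The log2 fold change was -0.62 ± 0.21 (SE), with an unadjusted p of 0.0071 and an adjusted p of 0.495 by edgeR (0.247 to 0.60 over the other fits), so it did not pass the test. In young mice saline libraries spanned 1596 to 3246 CPM and ISRIB libraries 1200 to 2646 CPM, with a log2 fold change of -0.08 ± 0.21. The difference between the ages was -0.53 ± 0.29 (adjusted p = 0.762), which did not pass either.

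Mean levels of other cells' genes also shifted between these libraries, with no gene of these lists called. The 16 nonclassical genes had a higher mean level with ISRIB in 15 cases, with a median log2 fold change of 0.29 and 0 called. Their summed level had a median of 7269 CPM in young saline and 6630 CPM in young ISRIB monocytes. In old mice the medians were 5084 CPM with saline and 6710 CPM with ISRIB. The 17 other classical genes tested had a lower mean level with ISRIB in 13, with a median of -0.16 and 0 called. All 14 tested genes of T and NK cells were higher with ISRIB, with a median of 0.79. The median was 1.35 in young mice (14 of 14 higher) and 0.15 in old mice (11 of 14 higher). Their summed level was 14.2 to 48.1 CPM in young saline, 27.4 to 164 CPM in young ISRIB, 37.8 to 176 CPM in old saline and 65.4 to 194 CPM in old ISRIB monocytes, and of the 15 genes of the list Ncr1 alone was at 0 in a group (young saline). Of 11 tested B and plasma cell genes 9 were higher with ISRIB, with a median of 0.81 (0.98 in young and 0.43 in old mice). The 12 genes of this list summed to 155 to 262 CPM in young saline, 161 to 245 CPM in young ISRIB, 142 to 316 CPM in old saline and 172 to 229 CPM in old ISRIB monocytes, and none was at 0 in a group. Of 10 tested dendritic cell genes 9 were higher with ISRIB, with a median of 0.25. The part of these transcripts in the values of the 6 genes was not tested.

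None of the 6 genes was called for age in monocytes. Averaged over saline and ISRIB, old against young log2 fold changes ran from -0.18 ± 0.14 (SE) for Ly6c2 to 0.07 ± 0.16 for Hp, with adjusted p (edgeR) of 0.802 to 0.969. Of the 6 genes, 0 were called by edgeR, DESeq2 or limma voom and 0 had an unadjusted p under 0.05, where 0.123% of all genes were called. In saline mice alone 0 of 6 were called by these tools and 0 had an unadjusted p under 0.05 (0.0247% of all genes called), and with ISRIB the counts were again 0 and 0 (0% called). Among all 12170 genes tested, 1003 averaged over treatments, 1072 in saline mice and 803 with ISRIB had an unadjusted p under 0.05.

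**Figure D3:**
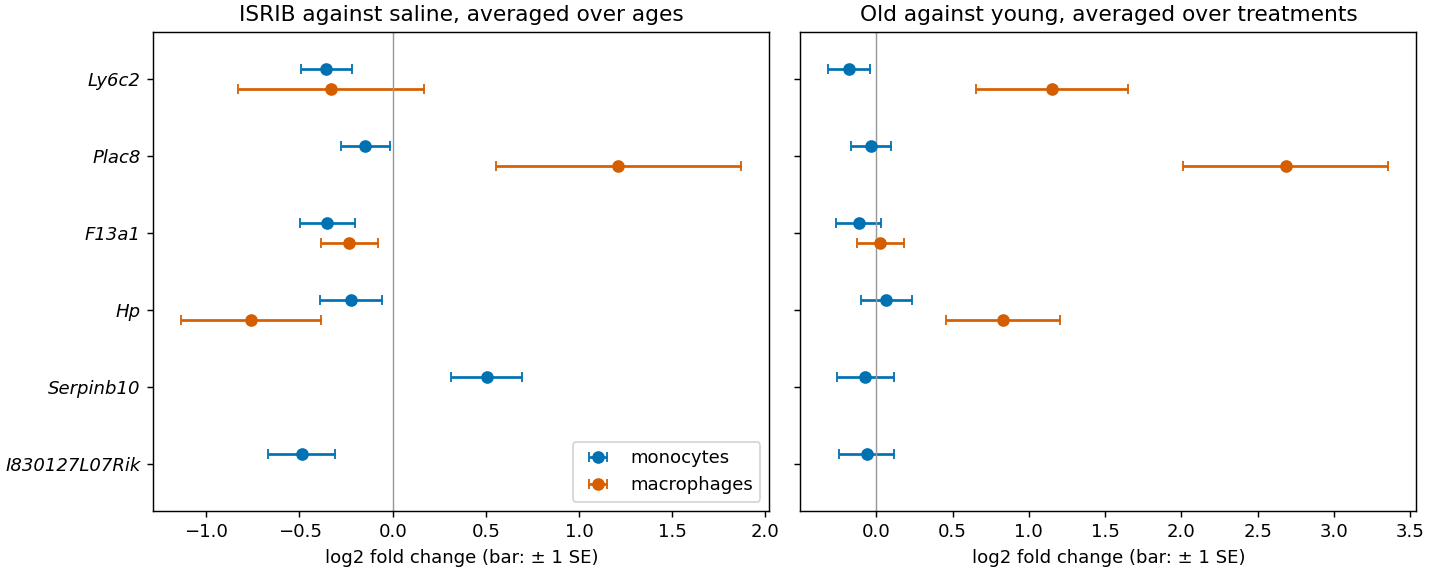
Log2 fold change with its approximate standard error of each gene for ISRIB against saline averaged over both ages (left) and for old against young averaged over both treatments (right), in monocytes and in macrophages. Serpinb10 and I830127L07Rik were not tested in macrophages. In monocytes all 6 age values lie between -0.18 and 0.07, and in macrophages Plac8 reaches 2.68.

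In macrophages, 4 of the 6 genes had enough counts to be tested. Serpinb10 and I830127L07Rik did not pass the filter on low counts and have no fold change there. Their counts were 5 in young and 6 in old macrophages for Serpinb10, and 2 and 8 for I830127L07Rik, too few to compare.

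Plac8 had low counts in all macrophages and higher ones in old mice. Young saline macrophages were at 1.32, 0, 0, 0.145 and 0.249 CPM and young ISRIB macrophages at 1.06, 1.23, 0.466 and 0 CPM. Old saline macrophages were at 0.837, 2.94, 4.04, 1.06 and 1.22 CPM and old ISRIB macrophages at 0.828, 10.8, 9.50, 0.505 and 2.58 CPM. All 10 old libraries lay above the median of the 9 young ones (0.249 CPM) and 5 lay above the highest young one, old ISRIB replicates 2 and 3 by the most, so the ages overlapped. The counts behind these values were 38 in young and 290 in old macrophages.

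Averaged over saline and ISRIB, the log2 fold change of Plac8 was 2.68 ± 0.67 (SE), with an adjusted p of 0.0191 (edgeR, over 12171 genes). In this comparison 4.86% of all genes tested were called. The filter on low counts asked for 1.25 CPM in at least 4 libraries, a level that Plac8 reached in 1 young and 5 old libraries, so it entered the test through the old libraries in which it was high. With no filter the value was 2.68 ± 0.55 (adjusted p = 1.93e-04). DESeq2 called it and limma voom did not (adjusted p = 0.0962). It stayed called with each single library left out, and without both old ISRIB libraries 2 and 3 it was 1.76 ± 0.70 with an adjusted p of 0.191, and no longer called. That pair was left out after the values were seen. Within saline mice the value was 2.68 ± 0.96 (adjusted p = 0.198) and within ISRIB mice 2.68 ± 0.95 (adjusted p = 0.196). The value within ISRIB mice was 0.87 ± 1.04 (adjusted p = 0.879) without that pair of libraries. With no filter both passed the threshold (adjusted p = 0.0369 in saline and 0.0389 in ISRIB mice). Even in old ISRIB mice, the highest group, the mean of 4.83 ± 4.91 CPM (SD, n = 5) was 292-fold below that of the monocytes of the same age and treatment.

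Transcripts of B and plasma cells were also higher in old macrophage libraries, and those of T and NK cells and of dendritic cells less clearly so. The summed level of 12 B and plasma cell genes was 8.66 to 29.3 CPM in the 9 young libraries, 24.7 to 419 CPM in old saline and 163 to 605 CPM in old ISRIB libraries. Averaged over treatments, 8 of the 11 tested genes of this list rose with age and 0 fell, led by Jchain, which joins antibody chains (log2 fold change 6.42 ± 0.83, adjusted p by edgeR 3.84e-05), and the antibody genes Igkc (4.65 ± 0.47) and Ighm (3.90 ± 0.47). None of the 12 genes was at 0 in all libraries of an old group. Of 15 T and NK cell genes, 5 of the 10 tested rose and 0 fell. Their summed level was 64.4 to 77.4 CPM in young saline and 77.9 to 139 CPM in young ISRIB libraries. It was 63.5 to 126 CPM in old saline and 107 to 137 CPM in old ISRIB libraries, so the ages overlapped. Ncr1 was at 0 in both young groups and Gzmb in young saline. Of 14 neutrophil genes 2 of the 6 tested rose and 0 fell, while Ly6g, which marks neutrophils, was at 0 in all 4 macrophage groups. Of 12 plasmacytoid and conventional dendritic cell genes, 9 were tested, and Clec9a, a receptor of conventional dendritic cells, rose (1.17 ± 0.21, adjusted p = 0.00121) while 0 fell. In all, 8 of these 9 had a higher mean level in old macrophages, with a median of 0.99 (0.78 in saline and 1.22 in ISRIB mice). Their summed level was 74.9 to 115 CPM in young, 82.0 to 121 CPM in old saline and 99.0 to 121 CPM in old ISRIB libraries, which overlapped, and Klk1 was at 0 in all 4 macrophage groups and Ccr9 in young ISRIB. Old ISRIB replicates 2 and 3, the highest in Plac8, had 226 and 605 CPM of the B and plasma cell genes, and old ISRIB replicates 1 and 4, with 163 and 180 CPM of them, had 0.828 and 0.505 CPM of Plac8. Old ISRIB replicate 5 departed from this order, with 352 CPM of B and plasma cell genes, more than replicate 2, and 2.58 CPM of Plac8. In old saline libraries, where the B and plasma cell genes reached 419 CPM, Plac8 reached 4.04 CPM at most. The part of lymphocyte and dendritic cell transcripts in the Plac8 values was not tested.

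**Figure D4:**
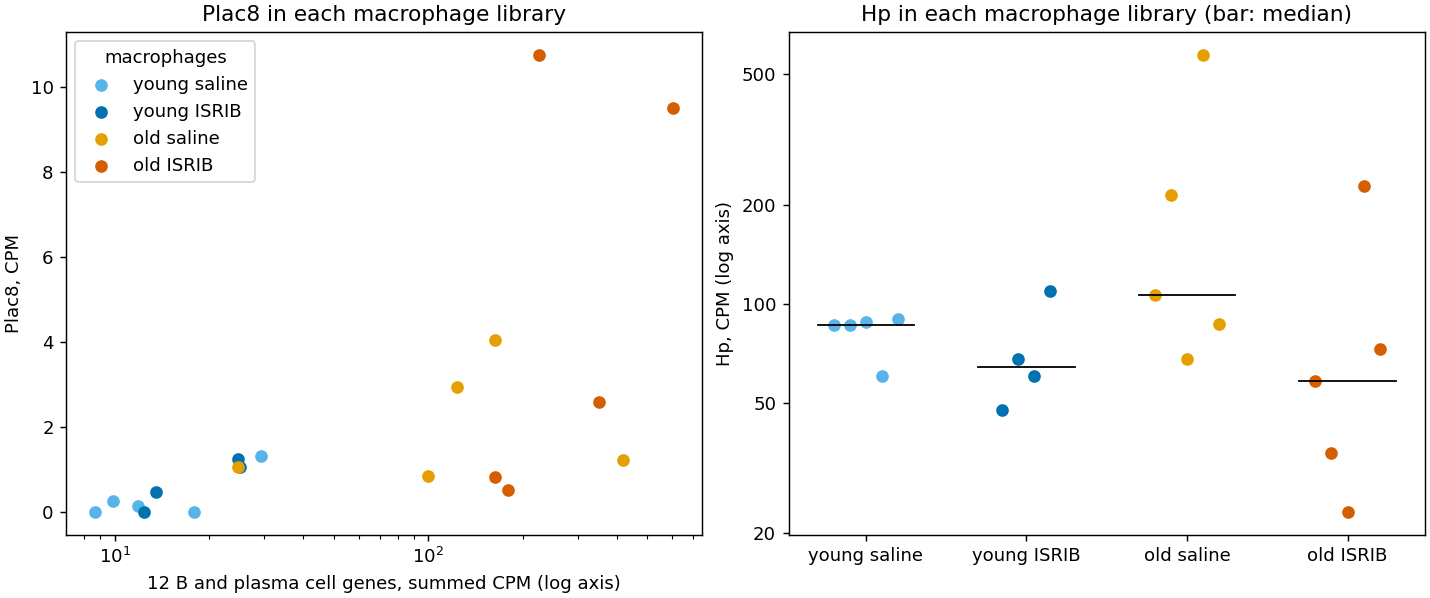
Left, Plac8 in CPM against the summed CPM of 12 B and plasma cell genes (log axis) in the 19 macrophage libraries, 1 point per library. Right, Hp in CPM (log axis) in the same libraries by group, with the median as a bar. Plac8 is highest, at 10.8 and 9.50 CPM, in 2 old ISRIB libraries, and Hp is highest, at 572 CPM, in 1 old saline library.

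Ly6c2 and Hp had higher mean levels in old macrophages but did not pass the test with the filter on low counts. Ly6c2 was at 0.494, 2.20, 0.239, 1.60 and 0.311 CPM in young saline and at 1.78, 3.5, 1.22, 7.01 and 1.83 CPM in old saline macrophages, which overlapped. Its log2 fold change was 1.73 ± 0.68 (SE, adjusted p = 0.252 by edgeR) in saline mice and 1.15 ± 0.50 (adjusted p = 0.211) averaged over treatments. The counts behind it were 71 in young and 199 in old macrophages.

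Haptoglobin transcripts varied most between old macrophage libraries. Hp was at 86.2, 86.4, 88.2, 60.1 and 90.1 CPM in young saline and 47.4, 67.8, 60.5 and 109 CPM in young ISRIB macrophages. It was at 106, 214, 68.1, 572 and 86.7 CPM in old saline and 58.3, 35.2, 23.2, 229 and 72.6 CPM in old ISRIB macrophages. Replicate 4 stood highest in both old groups. The old groups spanned more than the young ones, both upwards and, with ISRIB, downwards.

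The log2 fold change of Hp with age was 1.41 ± 0.51 (SE, adjusted p = 0.207 by edgeR) in saline mice and 0.83 ± 0.37 (adjusted p = 0.233) averaged over treatments. In saline mice it was 0.56 ± 0.43 (adjusted p = 0.680) without old saline replicate 4. The averaged value was 0.40 ± 0.31 (adjusted p = 0.558) without that library and 0.41 ± 0.32 (0.566) without old ISRIB replicate 4. Without both old replicates 4, a choice made after the values were seen, the averaged value was -0.02 ± 0.22 (adjusted p = 0.982). ISRIB against saline in old mice gave -1.34 ± 0.51 (adjusted p = 0.455), and 4 of 5 ISRIB libraries lay below the median of the saline ones. It moved to -0.49 ± 0.43 (adjusted p = 0.884) without old saline replicate 4 and to -2.18 ± 0.47 (0.0702) without old ISRIB replicate 4, and it was -1.34 ± 0.32 (0.214) without both. With no filter on low counts the same sizes passed the threshold. Hp was then at 1.41 ± 0.22 (adjusted p = 1.02e-06) for age in saline mice, 0.83 ± 0.16 (1.10e-04) for age averaged over treatments and -1.35 ± 0.22 (1.11e-05) for ISRIB in old mice. Hp reached the 1.25 CPM of the filter in all 9 young and 10 old libraries, so its counts were the same in both fits, while its SE was smaller. The fit with no filter was not repeated without the old replicates 4. Old saline replicate 4 also had the most Ly6c2 (7.01 CPM) and the most I830127L07Rik (0.661 CPM) of all macrophage libraries. Its other classical monocyte genes summed to 14195 CPM, the lowest of the 19. This sum does not set the cell types apart: its group medians were 17123 to 21613 CPM in monocytes and 16569.5 to 19647.5 CPM in macrophages. The neutrophil genes of old saline replicate 4 summed to 86.3 CPM, within the 64.1 to 97.2 CPM of old saline libraries, and its Siglecf stood at 51.5 CPM, the lowest of its group. The part of other cells in these values was not tested.

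F13a1 was at like levels in the 4 macrophage groups. Its log2 fold change with age was 0.03 ± 0.15 (SE, adjusted p = 0.955 by edgeR) averaged over treatments, and its sign turned in 5 of the fits without 1 library. Group means were 38.5 to 51.2 CPM with overlapping libraries.

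In macrophages, ISRIB against saline gave 0 called members of 4 tested in young mice (0 under an unadjusted p of 0.05, 0% of all genes called), 0 in old mice (Hp alone under an unadjusted p of 0.05, 0% called) and 0 averaged over both ages (0 under an unadjusted p of 0.05, 0.830% called). Age gave 0 called members in saline mice (3 under an unadjusted p of 0.05, 1.16% of all genes called) and 0 in ISRIB mice (1 under an unadjusted p of 0.05, 0.937% called). The difference between the ISRIB effects in old and young mice gave 0 (0 under an unadjusted p of 0.05, 0% called). DESeq2 and limma voom also called none of the 4 in these 6 comparisons. Among all 12171 genes tested, 1513 for ISRIB in young mice, 1112 in old mice and 2019 averaged over ages had an unadjusted p under 0.05. For age the numbers were 1545 in saline and 1485 in ISRIB mice, and for the difference between the ISRIB effects 621.

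Other classical monocyte genes did not move together with age in macrophages. Of 18 on the list, 16 were tested, 5 rose and 5 fell, with a median log2 fold change of 0.05 against 0.00 over all genes. Lyz1, a lysozyme, rose by 0.91 ± 0.22 (SE, adjusted p = 0.0167 by edgeR). Vcan, which encodes the matrix proteoglycan versican, was lower at -1.58 ± 0.45 (adjusted p = 0.0404), Ccr2 at -1.27 ± 0.19 (2.32e-04) and S100a4 at -0.88 ± 0.17 (0.00280). Of the 12 genes of mature alveolar macrophages, 7 rose and 0 fell, with Siglecf, whose low level defined the sort, at 0.75 ± 0.12 (adjusted p = 4.78e-04).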

How the data were processed

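RNA of 39 sorted samples was polyA-selected and sequenced from 3 ng of total RNA, per the labels' protocols. The authors deposited whole-number counts for each Ensembl ID, which were used as they stand. Per the submitters' processing notes the tools were bcl2fastq 2.19.1, FastQC, Trimmomatic 0.36, STAR 2.6.0 and HTSeq 0.11.2 with the mm10 genome. For the annotation and strand setting, the sources used here give nothing. Symbols and positions came from GENCODE vM21 (GRCm38), in which 42462 of 43430 IDs had a symbol, and promoter windows from RefSeq.

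The 20 monocyte and 19 macrophage libraries were fitted separately with edgeR 4.0.16 (quasi-likelihood test, TMM, filterByExpr with a minimum count of 10 and a minimum total count of 15, group means only) in R 4.3.3. Benjamini-Hochberg adjustment ran over 12170 and 12171 genes, and a gene was called under 0.05. The fit was tested on simulated data. The SE given with an edgeR log2 fold change is an approximation: the absolute fold change over the square root of the F statistic of its test. It is unreliable for fold changes very near 0. CPM are counts over the library total, and RPKM divide them by GENCODE exon length. Correlations used log2(CPM + 1) and two-sided permutation tests. Libraries are separate samples by label, and nothing says they are separate mice, so p-values measure the spread between samples, which may be technical. Likeness names the 3 genes with the highest Pearson r. From each gene list up to 5 called genes per comparison could be named, with Ly6c1, Ccr2, Siglecf, Nr4a1 and Cx3cr1 in any case. The members, lists and tests were chosen with earlier results of these data known. Alternatives were DESeq2 1.42.0, limma voom (limma 3.58.1), RLE factors, no filter, all libraries in 1 fit, a replicate block and each library left out.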

Additional observations from a re-analysis of the deposited data

Results flagged for a closer look

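In 48 sets of values, 1 for each gene and group, 10 libraries stood apart from the rest of their group by Dixon's criterion, which chance meets in about 1 in 20 sets. Sets in which most libraries have no count pass it with a handful of counts. In macrophages, Hp stood apart at 572 CPM in old saline replicate 4 (group median 106 CPM) and at 229 CPM in old ISRIB replicate 4 (median 58.3 CPM), both high. It stood apart at the low end at 60.1 CPM in young saline replicate 4 (median 86.4 CPM). Plac8 was high at 1.32 CPM (8 counts) in young saline macrophage replicate 1. F13a1 was high at 3246 CPM in young saline monocyte replicate 5, the library with the lowest Serpinb10.

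The other 5 rest on 2 to 5 counts in groups whose median was 0. They were Serpinb10 at 0.482 CPM in young ISRIB replicate 1 and 0.506 CPM in old ISRIB replicate 2, and I830127L07Rik at 0.193 CPM in young ISRIB replicate 1, 0.661 CPM in old saline replicate 4 and 0.25 CPM in old ISRIB replicate 3, all in macrophages. No explanation of these values was tested.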

How the results depend on the processing

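In monocytes the number of called members stayed at 0 in all 7 comparisons under every alternative run. In macrophages, without the filter on low counts 1 member was called for ISRIB in old mice, 2 for age in saline mice, 1 for age in ISRIB mice, 1 for ISRIB averaged over ages and 2 for age averaged over treatments (Hp, Plac8 or both), and the cause was not tested. For age averaged over treatments limma voom called 0, as did the fit without old ISRIB replicates 2 and 3, a choice made after seeing the data. In the latter, ISRIB against saline in old mice was -0.60 for Plac8, and age averaged over treatments was -0.0560 for F13a1. Age averaged over treatments was -0.0182 for Hp without both old replicates 4, also chosen after seeing the data. For I830127L07Rik in monocytes the averaged age value turned from -0.06 to 0.010 with limma voom and to 0.0016 with the replicate block. The relation of Plac8 and F13a1 turned to -0.10 after centring on group means. With 1 library left out at a time, the value spanned -0.20 to 0.11 for F13a1 with ISRIB in young monocytes. The averaged age value spanned -0.0914 to 0.0549 for Plac8, -0.158 to 0.0396 for Serpinb10 and -0.136 to 0.0883 for I830127L07Rik in monocytes, and -0.0657 to 0.0989 for F13a1 in macrophages. The log2 ratio of macrophages to monocytes spanned -10.48 to -9.43 for Serpinb10 and -12.10 to -10.89 for I830127L07Rik. Replicate numbers did not pair the samples (correlations of deviations -0.19 to 0.24), and the replicate block kept every count of called members. A few counts per library limit Serpinb10, I830127L07Rik and Plac8 in macrophages.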
